A study of Drosophila melanogaster with 6 samples.

Results

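The 10 polarity genes described here encode the core of the machinery that tells an epithelial cell its apical from its basolateral side, and they were found by their symbols in the gene column of the deposited table: crb, sdt and Patj of the Crumbs complex, baz, par-6 and aPKC of the Par complex, scrib, dlg1 and l(2)gl of the Scribble module, and the kinase gene par-1. They are 10 of 17649 genes in the table, and each symbol occurs there once. Whole eyes of wild-type Canton S pupae were dissected at 40 h and at 21 h after puparium formation (APF), with 3 biological replicates a stage, each made from pooled eyes, and were sequenced. By the study's account, the honeycomb lattice of the eye is in place at 40 h APF, whereas at 21 h APF lattice cells are still intercalating and dying. The deposited table holds 1 value per gene and stage, in FPKM (sequenced fragments per kilobase of transcript, relative to all mapped fragments), which Cuffdiff pooled over the replicates. The single replicates were not analysed here, so the values have no SD, test or p-value, and a difference between the stages has no replicate check. The table gives no read counts, so the depth behind a value is unknown from it.

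In flies the Crumbs and Par complexes mark the apical membrane and the junctions beneath it, and the Scribble module, with Par-1, marks the membrane on the sides and base of the cell. The sides exclude each other: aPKC phosphorylates Lgl, the product of l(2)gl, and Par-1 and so removes them from the apical cortex, while Par-1 phosphorylates Bazooka, the product of baz, and keeps it from the lateral membrane. In the photoreceptors of the pupal eye, Crumbs and its partners line the stalk membrane next to the forming rhabdomere, whereas Bazooka stays at the adherens junctions. By the study's account, the photoreceptor apical poles that give rise to rhabdomeres begin to fold later than both stages sampled here.

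All 10 genes were well expressed at both stages, from 34.0 FPKM (baz) to 130 FPKM (par-1) at 40 h APF and from 23.7 FPKM (Patj) to 143 FPKM (par-1) at 21 h APF. The median level of the 10 genes was 63.5 FPKM at 40 h against 51.6 FPKM at 21 h APF, against 16.8 FPKM at 40 h against 16.2 FPKM at 21 h APF over the 9828 genes that reached at least 1 FPKM at one stage or the other. The clearest difference between the stages lay in the Crumbs complex, where the scaffold genes sdt and Patj were higher at 40 h APF and the gene of their membrane anchor, crb, had almost the same level at both. The Par complex genes, scrib and par-1 each differed by at most 1.23-fold, the value of baz, and dlg1 and l(2)gl lay between, in opposite directions. A whole eye holds photoreceptors, cone, pigment and bristle cells together, so fewer cells of a type and less RNA per cell cannot be told apart in these values.

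**Figure D1:**
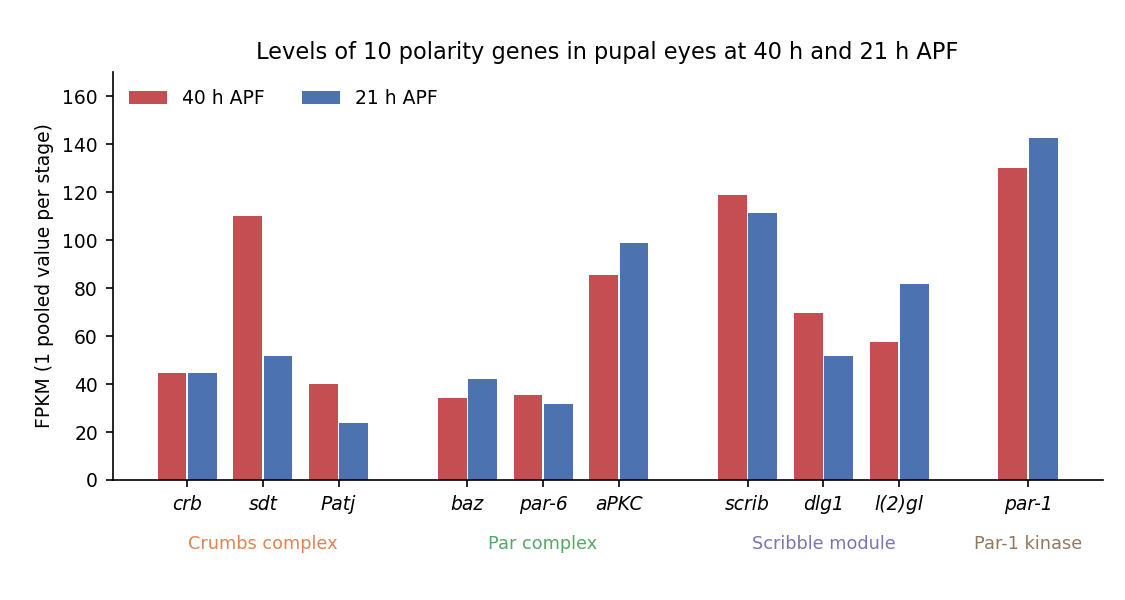
Pooled level of each polarity gene in FPKM (y axis, linear from 0), with 1 bar for 40 h APF on the left and 1 bar for 21 h APF on the right of each pair; there are no error bars because each stage has a single pooled value. The bars for sdt stand at 110 FPKM at 40 h against 51.5 FPKM at 21 h APF, while those for crb stand at 44.5 FPKM at 40 h against 44.8 FPKM at 21 h APF.

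The change of a gene was taken as log2((FPKM at 40 h + 0.1)/(FPKM at 21 h + 0.1)), and a gene was called higher or lower where that ratio came to at least 1.5-fold. Of the 10 genes, 2 were called higher, where 22.6% of the 9828 expressed genes were, and 0 were called lower, where 18.7% were. At 2-fold, 1 gene (sdt) was higher, beside 14.8% of the expressed genes, and 0 were lower, beside 10.7%. The members' shares are thus near the background for higher calls, and with 10 genes a count of 0 lower calls says little. By direction alone, 5 genes were higher and 5 were lower at 40 h APF. Their median log2 ratio was 0.04, against -0.02 over the expressed genes. The median size of the change, without its sign, was 0.25 on the log2 scale for the 10 genes and 0.46 for the expressed genes; it was 0.40 among 6867 genes that reached 10 FPKM at one stage or the other, as all 10 polarity genes did.

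**Figure D2:**
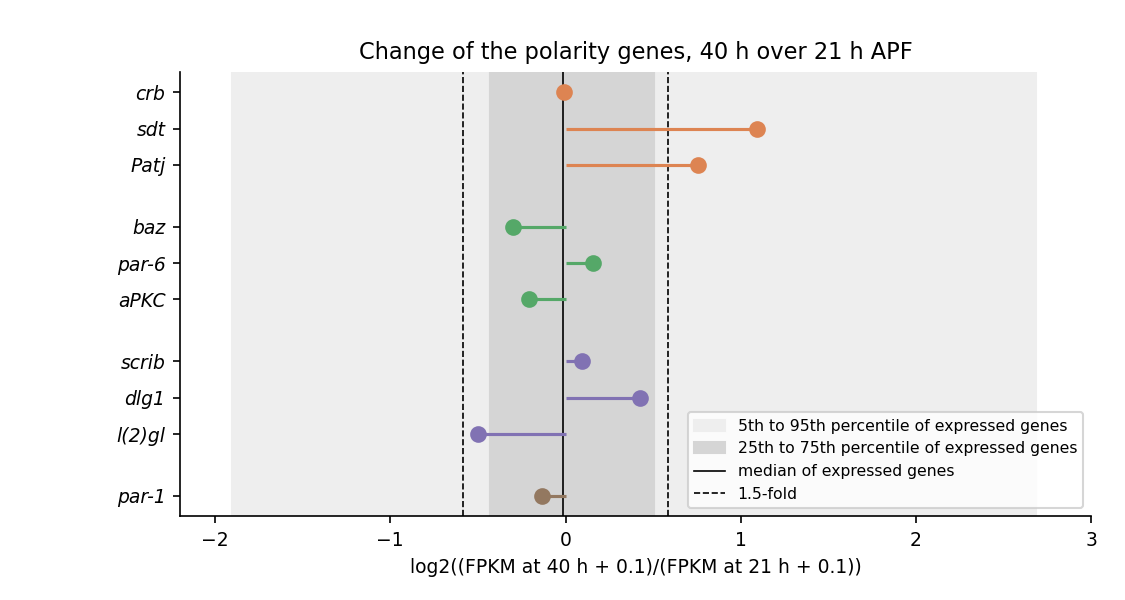
Log2 ratio of 40 h over 21 h APF for each polarity gene (points, coloured by complex), over a dark band for the interquartile range of the 9828 expressed genes and a light band that leaves out 5% of them at either end; dashed lines mark 1.5-fold and the solid line the median of the expressed genes. Only sdt (1.10) and Patj (0.76) lie past a dashed line, and crb (-0.01) lies on the median line.

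Crumbs is a transmembrane protein whose short tail inside the cell binds Stardust, a scaffold of the membrane-associated guanylate kinase family, and crb is its gene. The gene crb (FBgn0259685, at 3R:24295078-24314541 of BDGP6, plus strand, 4 annotated transcripts) had 44.5 FPKM at 40 h against 44.8 FPKM at 21 h APF. Its log2 ratio of -0.01 was among the smallest in the table, since 1.26% of the expressed genes had a ratio closer to 0. By level it ranked 7 of the 10 genes at both stages.

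Stardust is encoded by sdt (FBgn0261873, X:8178549-8240474, plus strand, 14 annotated transcripts), which had 110 FPKM at 40 h against 51.5 FPKM at 21 h APF. The fold of 40 h over 21 h was 2.14, a log2 ratio of 1.10, and 13.6% of the expressed genes had a higher one. With this difference sdt ranked 3 of the 10 genes by level at 40 h and 6 at 21 h APF. No other gene of the annotation overlaps its exons.

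Patj, a scaffold with several PDZ domains that joins the complex through Stardust, is encoded by Patj (FBgn0067864, 3L:1798803-1802184, plus strand, 3 annotated transcripts). It had 40.2 FPKM at 40 h against 23.7 FPKM at 21 h APF, a fold of 1.69 and a log2 ratio of 0.76. It ranked 8 of the 10 genes at 40 h and last at 21 h APF. Of its exon bases, 5.37% overlap those of JTBR on the opposite strand, and JTBR had 21.3 FPKM at 40 h against 21.4 FPKM at 21 h APF. Whether reads were assigned by strand is not given in the sources used here, so reads in this overlap cannot be told apart.

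The balance of transcript levels among the Crumbs complex genes therefore differed between the pooled values of the stages. Protein levels were not measured, so the make-up of the complex itself is not known from these values. The level of sdt was 2.48 times that of crb at 40 h and 1.15 times that of crb at 21 h APF. The level of Patj was 0.90 times that of crb at 40 h and 0.53 times that of crb at 21 h APF. Of the summed FPKM of the 3 genes, which was 195 at 40 h and 120.04 at 21 h APF, crb made up 22.8% at 40 h and 37.3% at 21 h APF, sdt 56.6% at 40 h and 42.9% at 21 h APF, and Patj 20.6% at 40 h and 19.8% at 21 h APF. A ratio within a stage is the same under any scaling common to all genes, so these shares do not depend on how the stages were normalized against each other.

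**Figure D3:**
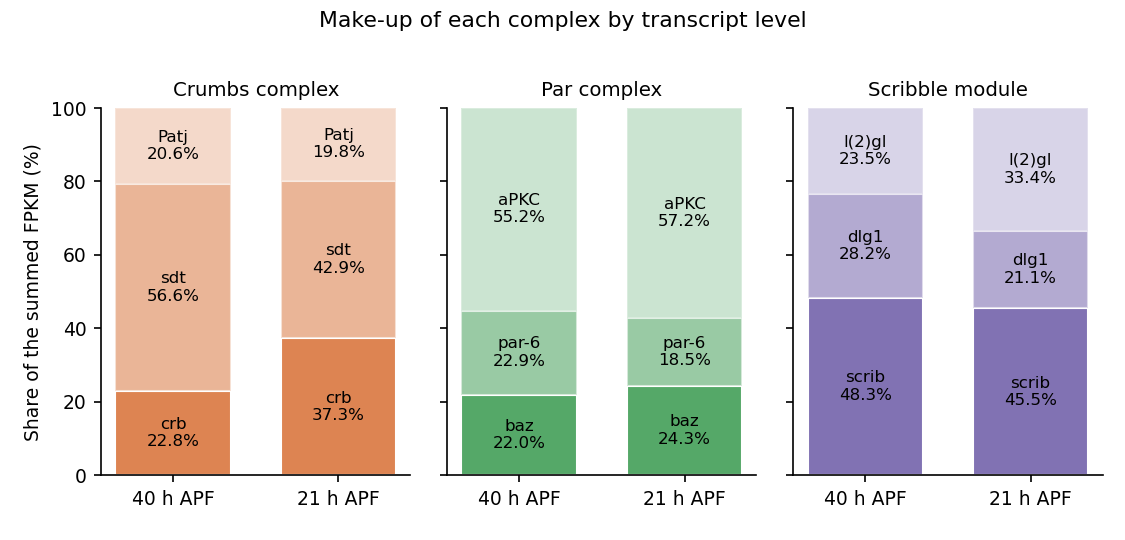
Share of each gene in the summed FPKM of its complex (y axis, percent), with 40 h APF on the left and 21 h APF on the right for each of 3 complexes. The share of crb is 22.8% at 40 h and 37.3% at 21 h APF, and that of l(2)gl is 23.5% at 40 h and 33.4% at 21 h APF. For each Par complex gene, the share differs by less than 5 percentage points between the stages.

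In the Par complex, which couples the atypical protein kinase C to its adaptor Par-6 and to the scaffold Bazooka, the fly Par-3, no gene was called at 1.5-fold. The gene baz (FBgn0000163, X:17160006-17200728, plus strand) had 34.0 FPKM at 40 h against 41.9 FPKM at 21 h APF, a log2 ratio of -0.30. With that, baz was the lowest of the 10 genes at 40 h APF, and it ranked 8 at 21 h APF. The gene par-6 (FBgn0026192, X:17703352-17707096, plus strand) had 35.4 FPKM at 40 h against 31.8 FPKM at 21 h APF, a log2 ratio of 0.16.

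The kinase gene aPKC (FBgn0261854, 2R:14944458-14962969, minus strand) was the most abundant of the Par complex, with 85.4 FPKM at 40 h against 98.6 FPKM at 21 h APF, for a log2 ratio of -0.21. It stood at 2.41 times par-6 at 40 h and 3.10 times par-6 at 21 h APF, and at 2.51 times baz at 40 h and 2.35 times baz at 21 h APF. The summed FPKM of the Par complex was 155 at 40 h and 172 at 21 h APF. Since baz was lower and sdt higher at 40 h APF, the level of sdt came to 3.24 times that of baz at 40 h and 1.23 times that of baz at 21 h APF; in fly epithelia Bazooka and Stardust can bind each other.

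The Scribble module holds a pair of large scaffolds and the aPKC substrate Lgl, and its summed FPKM was 246 at 40 h and 244 at 21 h APF. The gene scrib (FBgn0263289, 3R:26536350-26604051, plus strand, 18 annotated transcripts), which encodes a scaffold with leucine-rich repeats and PDZ domains, had 119 FPKM at 40 h against 111 FPKM at 21 h APF. Its log2 ratio was 0.09, and it ranked 2 of the 10 genes at both stages.

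Discs large, a guanylate kinase family scaffold of the lateral membrane and of septate junctions, is encoded by dlg1 (FBgn0001624, X:11369665-11409776, plus strand, 21 annotated transcripts). It had 69.4 FPKM at 40 h against 51.6 FPKM at 21 h APF, a fold of 1.35 and a log2 ratio of 0.43. The gene l(2)gl (FBgn0002121, 2L:9839-21376, minus strand, 11 annotated transcripts) had 57.6 FPKM at 40 h against 81.7 FPKM at 21 h APF. Its level at 21 h was 1.42 times that at 40 h APF, a log2 ratio of -0.50, the lowest of the 10 genes, and 21.7% of the expressed genes had a lower one. The near-equal sum of the module thus holds a dlg1 level that was 1.20 times l(2)gl at 40 h and 0.63 times l(2)gl at 21 h APF, so that the order of these genes by level was not the same at both stages. Relative to its kinase, the level of aPKC was 1.48 times that of l(2)gl at 40 h and 1.21 times that of l(2)gl at 21 h APF.

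The kinase gene par-1 (FBgn0260934, 2R:19456170-19485686, plus strand, 11 annotated transcripts) had the highest level of the 10 genes at both stages, with 130 FPKM at 40 h against 143 FPKM at 21 h APF, a log2 ratio of -0.14. In its level it was above 93.2% of the expressed genes at 40 h and above 94.5% at 21 h APF. On the same strand mei-W68 overlaps 6.35% of its exon bases, and mei-W68 had 1.04 FPKM at 40 h against 1.23 FPKM at 21 h APF. On the opposite strand TBCB overlaps 1.52% of them, with 37.8 FPKM at 40 h against 44.2 FPKM at 21 h APF. The level of par-1 was 3.82 times that of baz, its substrate, at 40 h and 3.40 times at 21 h APF.

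From the highest to the lowest level, the order was par-1, scrib, sdt, aPKC, dlg1, l(2)gl, crb, Patj, par-6 and baz at 40 h APF, and par-1, scrib, aPKC, l(2)gl, dlg1, sdt, crb, baz, par-6 and Patj at 21 h APF. The highest level was 3.82 times the lowest at 40 h and 6.01 times at 21 h APF. Neighbours in the order differed by at most 1.30-fold at 40 h, and at 21 h APF the largest step was 1.58-fold, between l(2)gl and dlg1. The smallest step was that of dlg1 over sdt at 21 h APF, 1.00-fold. Since no spread over replicates is at hand, it cannot be said which neighbours differ. Summed by side, the 6 genes of the apical complexes had 349.6 FPKM at 40 h against 292 FPKM at 21 h APF. The 4 genes scrib, dlg1, l(2)gl and par-1 had 375 FPKM at 40 h against 387 FPKM at 21 h APF. Of the 6 apical genes, sdt was 58.7 FPKM higher at 40 h APF, Patj and par-6 were also higher, and crb, baz and aPKC were lower. The median of these 6 genes was 42.3 FPKM at 40 h against 43.3 FPKM at 21 h APF.

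Beyond their level, the 10 genes as a set have large gene models. They have a median of 11 annotated transcripts, against 2 over the expressed genes found in the annotation. Their median of exon bases is 9512.5, against 2028. Not every member is large, as par-6 has 2 annotated transcripts and 3032 exon bases, and Patj has 3 and 3294. Several of the 10 genes are known to make isoforms with different domains in flies, and a single FPKM per gene does not tell those isoforms apart. On chromosome X lie 4 of the 10: sdt, baz, par-6 and dlg1.

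The partners of these genes were taken from lists chosen for known function, 48 genes in all, of which each had at least 1 FPKM at one stage or the other. At 1.5-fold, 6 of the 48 (12.5%) were higher and 6 (12.5%) were lower at 40 h APF, against 22.6% higher and 18.7% lower among all expressed genes, and their median log2 ratio was -0.03. With each stage divided by its upper quartile, 3 of the 48 were higher and 9 were lower, against 19.4% higher and 23.9% lower among all expressed genes. The lists below hold 4 to 12 genes, and their counts stand as descriptions beside these shares.

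Among 12 genes that bind the Crumbs complex or carry its proteins through the cell, 3 were higher, a share close to the 22.6% of all expressed genes, and 1 (8.33%) was lower, beside 18.7% of them. The gene kst, which encodes the heavy beta spectrin of the apical membrane skeleton that the Crumbs tail recruits, had 227 FPKM at 40 h against 95.2 FPKM at 21 h APF, a log2 ratio of 1.25. Moe, which encodes Moesin, a FERM domain linker of membrane to actin, had 332 FPKM at 40 h against 165 FPKM at 21 h APF, a log2 ratio of 1.01. The gene veli encodes the fly Lin-7, a small scaffold that Stardust holds in the Crumbs complex, and had 76.9 FPKM at 40 h against 47.7 FPKM at 21 h APF, a log2 ratio of 0.69. With upper-quartile scaling veli was at 0.55, under 1.5-fold, which left 2 genes of this list higher.

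The gene lower at 40 h APF in this list was ex, which encodes Expanded, a FERM domain protein of the Hippo pathway that binds the Crumbs tail. It had 11.6 FPKM at 40 h against 25.9 FPKM at 21 h APF, a log2 ratio of -1.15, and another gene overlaps 6.72% of its exon bases. The gene yrt, whose product Yurt binds the same tail and limits Crumbs activity, had 67.8 FPKM at 40 h against 51.0 FPKM at 21 h APF, a log2 ratio of 0.41.

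Of 11 partners and kinases that act with the Par proteins and Par-1, 0 were called in either direction, with log2 ratios between -0.48 and 0.23, beside the 22.6% higher and 18.7% lower among all expressed genes. With upper-quartile scaling 1 of them was lower, tws, which encodes a regulatory subunit of protein phosphatase 2A, at -0.61. Cdc42, the small GTPase that binds Par-6, had 237 FPKM at 40 h against 288 FPKM at 21 h APF. Lkb1, a kinase required for polarity in fly epithelia, had 12.6 FPKM at 40 h against 13.0 FPKM at 21 h APF. The log2 ratios of the Par complex genes themselves lay between -0.30 and 0.16.

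Of 6 partners of Scribble and Discs large, 1 (16.7%) was higher and 0 were lower at 40 h APF, beside the same 22.6% and 18.7%. The higher gene was metro, which encodes a guanylate kinase family scaffold that acts with Discs large at the larval neuromuscular junction, with 29.1 FPKM at 40 h against 18.2 FPKM at 21 h APF, a log2 ratio of 0.68. Another gene overlaps 10.4% of its exon bases. With upper-quartile scaling metro was at 0.54, under 1.5-fold, and gukh was at -0.61, so that 0 genes of this list were higher and 1 was lower. In the Yurt and Coracle group of lateral proteins, 2 of 4 genes were higher, beside 22.6% of all expressed genes, namely cora, with 165 FPKM at 40 h against 90.0 FPKM at 21 h APF, and Atpalpha, which encodes a subunit of the sodium pump, with 491 FPKM at 40 h against 309 FPKM at 21 h APF. Their log2 ratios were 0.88 and 0.67, and yrt belongs to this group as well. With upper-quartile scaling Atpalpha was at 0.53, under 1.5-fold, which left cora as the 1 higher gene of the 4.

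Among 9 adherens junction genes, 0 were higher and 1 (11.1%) was lower at 40 h APF, beside the 22.6% and 18.7% of all expressed genes. The lower gene was jub, which encodes the Ajuba LIM protein, with 13.9 FPKM at 40 h against 28.6 FPKM at 21 h APF. The E-cadherin gene shg had 59.9 FPKM at 40 h against 73.1 FPKM at 21 h APF, and the beta-catenin gene arm had 597 FPKM at 40 h against 564 FPKM at 21 h APF. The study, which called genes by a test over its replicates rather than by fold, reported decreased shg at 40 h APF.

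**Figure D4:**
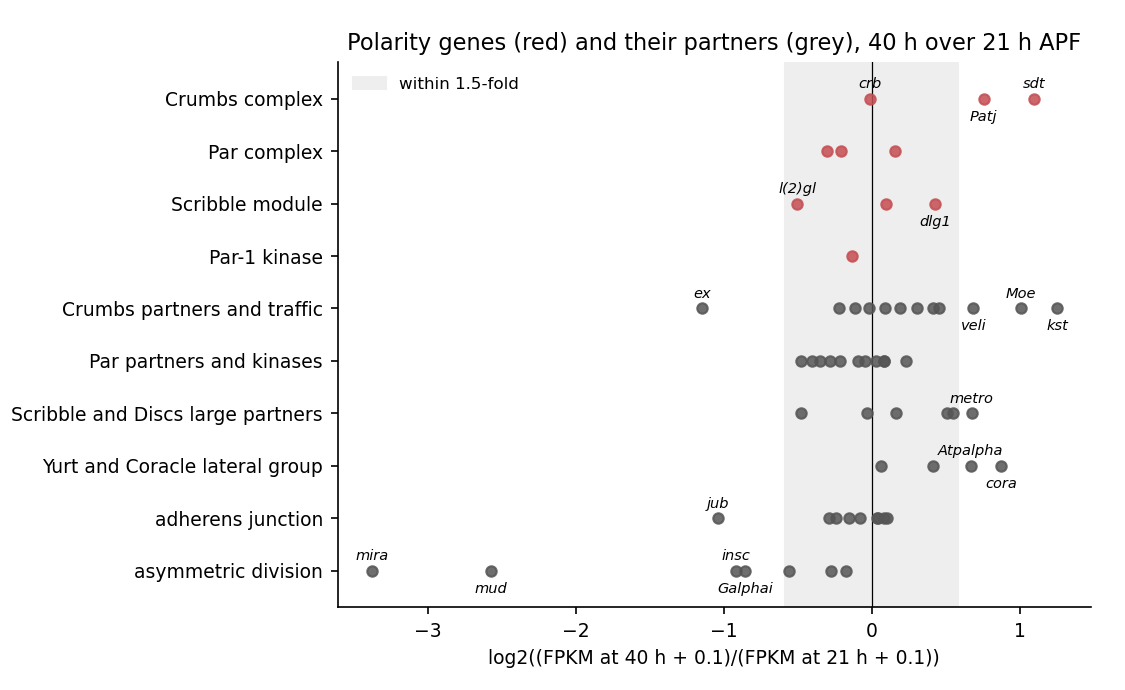
Log2 ratio of 40 h over 21 h APF for each polarity gene (red) and for each gene of 6 partner lists (grey), 1 row per list; the shaded band holds ratios within 1.5-fold. The points of the Par complex and of its partners all lie in the band, whereas sdt, Patj, veli, Moe, kst, metro, cora and Atpalpha lie to its right, and ex, jub, mira, mud, insc and Galphai to its left.

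Markers of the eye and of other cells give the setting of these levels. Of the eye genes so, eya, gl, chp and elav, 5 of 5 had at least 1 FPKM, and their summed level was 566 FPKM at 40 h against 935 FPKM at 21 h APF, with 3 of them at least 1.5-fold lower at 40 h APF. The pan-neuronal markers elav, nSyb, Syt1 and brp summed to 544 FPKM at 40 h against 322 FPKM at 21 h APF, with 3 of the 4 at least 1.5-fold higher at 40 h APF and elav at 89.6 FPKM at 40 h against 84.9 FPKM at 21 h APF. Other genes overlap 34.2% of the exon bases of elav, with 27.9% on the same strand, and elav is in both lists. The sums of 4 markers each were 171 FPKM at 40 h against 223 FPKM at 21 h APF for glia, 49.7 FPKM at 40 h against 18.4 FPKM at 21 h APF for neurons with another transmitter than histamine, and 31.6 FPKM at 40 h against 37.1 FPKM at 21 h APF for fat body. For the other transmitters, VGlut had 29.8 FPKM at 40 h against 8.67 FPKM at 21 h APF and VAChT 16.2 against 6.57 FPKM. ChAT had 2.24 against 1.74 FPKM and Gad1 1.51 against 1.38 FPKM, so the higher sum came mostly from VGlut and VAChT. On the same strand ChAT and VAChT overlap each other, over 15.1% of the exon bases of ChAT and 8.54% of those of VAChT. The 4 muscle markers summed to 6.02 FPKM at 40 h against 1.32 FPKM at 21 h APF. Of these Mhc and Mlp60A were under 1 FPKM at both stages, while up had 1.72 against 0.08 FPKM and Act88F 2.51 against 0.71 FPKM. The 4 tracheal markers summed to 52.1 FPKM at 40 h against 99.9 FPKM at 21 h APF, of which trh and btl were under 1 FPKM at both stages. The lower tracheal sum came mostly from verm, with 36.3 FPKM at 40 h against 82.5 FPKM at 21 h APF, while serp had 15.5 against 16.5 FPKM. The 4 hemocyte markers summed to 55.2 FPKM at 40 h against 3.72 FPKM at 21 h APF; of these Hml and NimC1 were under 1 FPKM at both stages, while Pxn had 53.4 FPKM at 40 h against 1.92 FPKM at 21 h APF. Among the glial markers loco had 62.2 FPKM at 40 h against 124 FPKM at 21 h APF, repo 40.4 against 40.5 FPKM, moody 56.6 against 55.6 FPKM and Gs2 11.4 against 3.44 FPKM, so the lower glial sum came from loco, and the list's median log2 ratio was 0.01. No marker of these lists was listed at 0. The part of any of these in the levels of the polarity genes was not tested.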

How the data were processed

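Total RNA of whole Canton S pupal eyes was sequenced in 6 libraries, 3 at 40 h and 3 at 21 h APF. According to the submitters' processing notes and the methods, reads were checked with FastQC, aligned to BDGP6 with Bowtie2 at default parameters and quantified with Cuffdiff with geometric normalization and bias correction; versions are not given in the sources used here. The authors deposited 1 FPKM value per gene and stage, pooled over the replicates, so that their normalization is already in the values and the spread between replicates is not. Bowtie2 does not split reads across introns, so that reads over exon junctions can be lost. The table also holds the authors' own comparison (log2 fold change, test score, p-value, q-value and a mark of significance), which was not used. Per-sample columns that could not be mapped numbered 0.

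Log2 ratios were computed with a pseudocount of 0.1 FPKM. A gene counted as expressed at 1 FPKM or more at one stage or the other (9828 genes), and as called at 1.5-fold or more. The code of the calling step was checked on a copy of the table with known changes planted in 200 genes. No noise was added, so this check bears on the code and not on the calls made here. Positions, transcripts and exon overlaps came from Ensembl release 115 on the same assembly, which holds 17512 of the 17649 gene identifiers, while the authors used an earlier release. No sequence is shown. Named partners were those past 1.5-fold, at most the 4 of largest change a list, plus yrt, Cdc42, Lkb1, ex, shg and arm. In addition, tws, gukh and brat were named because they passed 1.5-fold with upper-quartile scaling only. The members and lists were chosen with earlier results of these data known. Alternatives were other pseudocounts, scalings, minimums and a fold of 2. Python 3.11.15, numpy 2.4.6, pandas 2.3.3 and matplotlib 3.10.9 were used.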

Additional observations from a re-analysis of the deposited data

How the results depend on the processing

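No paired analysis was possible because each stage has 1 pooled value, and for the same reason no replicate could be left out. With a fold of 2, the number of polarity genes called higher was 1 instead of 2. Dividing each stage by its upper quartile lowered the median log2 ratio of all expressed genes by 0.13, to -0.15. Under it the median of the polarity genes was -0.092, the number called lower was 1, namely l(2)gl at -0.64, and scrib was at -0.04; partner genes numbered 3 higher and 9 lower instead of 6 and 6. Centring on the median put crb at 0.01. Every other change of the 10 genes kept its sign and its side of 1.5-fold under the 5 pseudocounts and scalings. Genes called at 1.5-fold made up 19.5% higher and 16.8% lower with no minimum, and 20.5% higher and 14.1% lower at 10 FPKM. The lack of replicate values limits every difference described here.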

Other observations

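Of 7 genes that act in asymmetric cell division, where the Par complex also acts, 0 were higher and 4 (57.1%) were lower at 40 h APF. Their median log2 ratio was -0.85. Among all expressed genes, 22.6% were higher and 18.7% were lower. With upper-quartile scaling 5 were lower, brat being added at -0.69. In dividing fly neural precursors aPKC drives the adaptor Miranda off the apical cortex; its gene mira had 1.84 FPKM at 40 h against 20.0 FPKM at 21 h APF, a log2 ratio of -3.38. The spindle anchor gene mud had 1.21 FPKM at 40 h against 7.67 FPKM at 21 h APF, and a gene on the opposite strand overlaps 98.6% of its exon bases. The gene insc, whose product links Bazooka to the spindle machinery, had 2.06 FPKM at 40 h against 3.98 FPKM at 21 h APF. On the same strand sktl overlaps 9.24% of the exon bases of insc. Galphai had 56.6 FPKM at 40 h against 102 FPKM at 21 h APF. Beside the genes of this list, baz, par-6 and aPKC had log2 ratios between -0.30 and 0.16. Whether these lists differ was not tested.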
